A study of Homo sapiens with 6 samples.

Results

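TXNIP and ARRDC4 are 2 of the 1877 genes in the table that the authors deposited for a comparison of LP-1 cells with and without RNF5. They were taken by gene name, and both were already known to be higher after RNF5 depletion, so their change is described here without a test. LP-1 is an established line of human multiple myeloma, a tumour of plasma cells. In 3 libraries RNF5, a membrane-anchored ubiquitin ligase, had been depleted with short hairpin RNA, and 3 libraries came from a control labelled as non-target. All cells grew in RPMI medium with fetal bovine serum. The labels do not state the glucose content of the medium, which hairpins were used, when cells were harvested, whether they were clones, or whether each library came from its own culture.

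The arrestin-domain proteins encoded by TXNIP and ARRDC4 are related to the arrestins that bind activated receptors. TXNIP binds reduced thioredoxin and promotes the uptake of glucose transporters from the cell surface, and ARRDC4 has also been linked to glucose transport and to ubiquitin ligases of the NEDD4 family. Both genes are classical targets of MondoA (gene MLXIP), a transcription factor that enters the nucleus with its partner MLX when hexose phosphates accumulate and then binds carbohydrate response elements, which are pairs of E-box-like motifs.

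The promoters are shown because the pair is grouped by a shared transcription factor. TXNIP (ENSG00000265972) lies on the minus strand of chromosome 1 at 145992435 to 145996600 in GENCODE release 29 (build GRCh38), and its principal transcript has 8 exons. ARRDC4 (ENSG00000140450) lies on the plus strand of chromosome 15 at 97960698 to 97973838, and its transcript also has 8 exons. The files hold no coordinates, and the hg19 build of the submitters' notes was not used for these positions. Each sequence below runs from 250 bases before to 50 bases after the annotated start in RefSeq, build GRCh38.p14, 5′ to 3′ in the direction of transcription. Capitals mark matches to the motifs described next.
TXNIP promoter, chr1:145996530-145996829, minus strand: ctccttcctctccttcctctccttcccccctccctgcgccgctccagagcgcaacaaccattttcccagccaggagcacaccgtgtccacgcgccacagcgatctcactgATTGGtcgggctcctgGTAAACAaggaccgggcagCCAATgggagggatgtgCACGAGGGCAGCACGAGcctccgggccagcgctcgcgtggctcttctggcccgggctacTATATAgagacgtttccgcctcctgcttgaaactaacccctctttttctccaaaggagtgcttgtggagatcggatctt
ARRDC4 promoter, chr15:97960453-97960752, plus strand: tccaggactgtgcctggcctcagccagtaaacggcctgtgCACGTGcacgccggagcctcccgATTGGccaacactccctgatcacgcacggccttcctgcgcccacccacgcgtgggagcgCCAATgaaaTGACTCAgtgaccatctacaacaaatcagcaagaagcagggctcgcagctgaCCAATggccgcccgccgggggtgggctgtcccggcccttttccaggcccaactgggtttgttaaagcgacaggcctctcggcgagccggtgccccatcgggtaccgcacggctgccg

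The motif shared by both windows was the CCAAT box (CCAAT on either strand), which NF-Y binds. TXNIP had 2 matches, at -140 to -136 and -105 to -101 from the start, and ARRDC4 had 3, at -187 to -183, -128 to -124 and -67 to -63. Of all 34943 windows of this length in the table, 34.6% held at least 1 CCAAT box and 10.8% held 2 or more. E-box sequence differed between the genes. The TXNIP window held the direct repeat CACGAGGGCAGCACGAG at -88 to -72, which is a pair of E-box-like hexamers spaced as in a carbohydrate response element, and it held no perfect E-box. ARRDC4 held 1 perfect E-box (CACGTG, a palindrome, in 7.23% of windows) at -210 to -205 and no such repeat. The repeat was searched on both strands as CACGNG and again CACGNG with 5 bases between, letters set with the TXNIP sequence in view, and 20 of the 34943 windows held it (0.0572%). A second form of the element, CANGNG and CNCNTG separated by 5 bases, matched neither window (0.564% of all windows did).

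The other motifs were found in 1 promoter each. TXNIP had a FOXO-type motif (GTAAACA, in 3.42% of windows) at -124 to -118 and a TATA box (searched as TATATA, in 4.0%) at -29 to -24. ARRDC4 had an AP-1 motif (TGACTCA, in 4.96%) at -119 to -113, separated by 4 bases from its middle CCAAT box. A heat shock element (GAA, TTC and GAA with 2 bases between each, in 0.489%) was in neither. The table also lists an internal start of TXNIP, whose window matched none of these motifs. All motifs were searched on both strands, and no counted matches overlapped in these windows. A match is a description of the letters in the window.

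**Figure D1:**
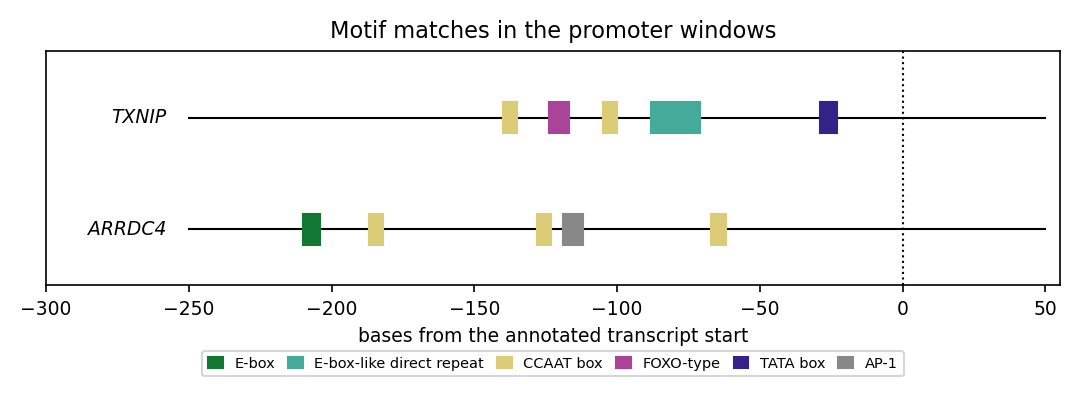
Motif matches in the RefSeq promoter windows of TXNIP and ARRDC4, drawn to scale against the distance in bases from the annotated transcript start (dotted line), with each box spanning 1 match. Both windows hold CCAAT boxes, the E-box-like direct repeat lies at -88 to -72 in TXNIP, and the perfect E-box lies at -210 to -205 in ARRDC4.

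The values per library are normalized abundances of unstated scale, so levels are compared between libraries and not between genes. The depth of the libraries is unknown, which leaves counting error without an interval. RNF5 itself, the depleted gene, ranged from 81.35 to 95.40 over the knockdown libraries and from 1248 to 1649 over the controls. Of the 10 plasma cell markers looked for, SDC1 alone was in the authors' set, at 34.13 to 36.19 in the knockdown and 9.20 to 14.45 in the control. Of 6 markers each for T and NK cells and for myeloid cells none was listed, and of 6 each for fibroblasts and for packaging or epithelial cells 1 was listed, COL1A1 (at most 0.72 in any library) and CLDN4 (at most 3.17). COL1A1 and CLDN4 had lower means in the knockdown, and their part in the results below was not tested.

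TXNIP was lower in every control library than in every library with RNF5 depleted. It was at 2.42, 2.25 and 1.5 in controls 1, 2 and 3, and at 39.60, 46.28 and 44.28 in knockdowns 1, 2 and 3. The groups were far apart, and the lowest knockdown library was 16.4 times the highest control library. The mean was 2.06 ± 0.490 in the control and 43.4 ± 3.43 in the knockdown (SD, n = 3 each), a ratio of 21.1. On the log2(value + 1) scale used for all genes, the difference was 3.87 (SE 0.19), and the log2 fold change in the authors' deposited table was 4.24.

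ARRDC4 was likewise lower in every control library than in every knockdown library, over a smaller range. It was at 0.86, 0.89 and 0.41 in controls 1, 2 and 3, and at 5.09, 5.41 and 5.13 in knockdowns 1, 2 and 3. Here the lowest knockdown library was 5.72 times the highest control library. The mean was 0.720 ± 0.269 in the control and 5.21 ± 0.174 in the knockdown (SD, n = 3 each), a ratio of 7.24. The difference on the log2(value + 1) scale was 1.86 (SE 0.18), against 2.70 for the log2 fold change in the authors' deposited table. The gap between these numbers is wide because ARRDC4 was below 1 in all 3 controls, where adding 1 compresses a difference. In 47.7% of the 1877 listed genes all 3 knockdown values were above all 3 control values, and since both genes were chosen on this contrast, nothing is read from their place among them.

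**Figure D2:**
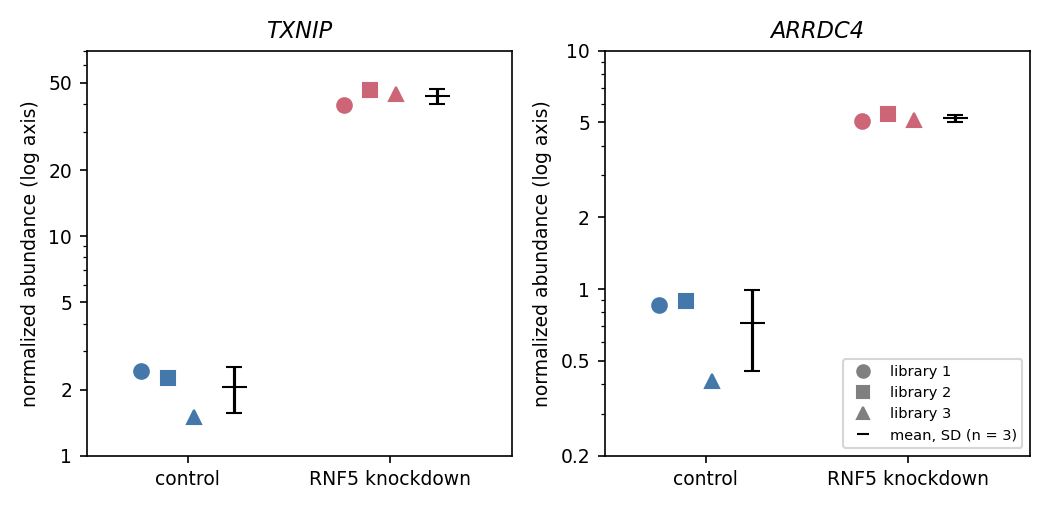
Normalized abundance (log axis) of TXNIP and ARRDC4 in each control and knockdown library, with the group mean and SD (n = 3) beside the points. The groups do not overlap for either gene, the knockdown libraries lie close together, and control library 3 is the lowest library for both.

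The spread of the controls rested on control library 3. The coefficient of variation of TXNIP was 23.8% over the controls and 7.90% over the knockdowns. For ARRDC4 it was 37.3% over the controls and 3.35% over the knockdowns. Over controls 1 and 2 alone it was 5.15% for TXNIP and 2.42% for ARRDC4. Leaving out the most distant library lowers the spread by construction, so these values are not compared with those of the knockdowns. Control library 3 was the lowest library for both genes, as it was among the controls for 428 of the 598 listed genes whose mean was 5 or more. Knockdown library 2 was the highest for both, as it was within its group for 281 of those 598 genes. Without control library 3 the difference on the log2(value + 1) scale was 3.73 for TXNIP and 1.73 for ARRDC4. In bulk RNA, more cells that carry a transcript and more transcript per cell cannot be told apart.

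TXNIP differed between the groups by a larger factor than ARRDC4 did. The ratio of TXNIP to ARRDC4 within a library does not depend on how that library was scaled. It was 2.81, 2.53 and 3.66 in controls 1, 2 and 3, and 7.78, 8.55 and 8.63 in knockdowns 1, 2 and 3. All knockdown ratios were above all control ratios. The mean ratio was 3.0 ± 0.588 in the control and 8.32 ± 0.471 in the knockdown, a 2.77-fold difference (1.49 as a difference of mean log2 ratios, with a replicate SD of 0.20). Only the change of this ratio can be read, since abundances of different genes may not share a scale, and it is given without a test because both genes were chosen on the same contrast.

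**Figure D3:**
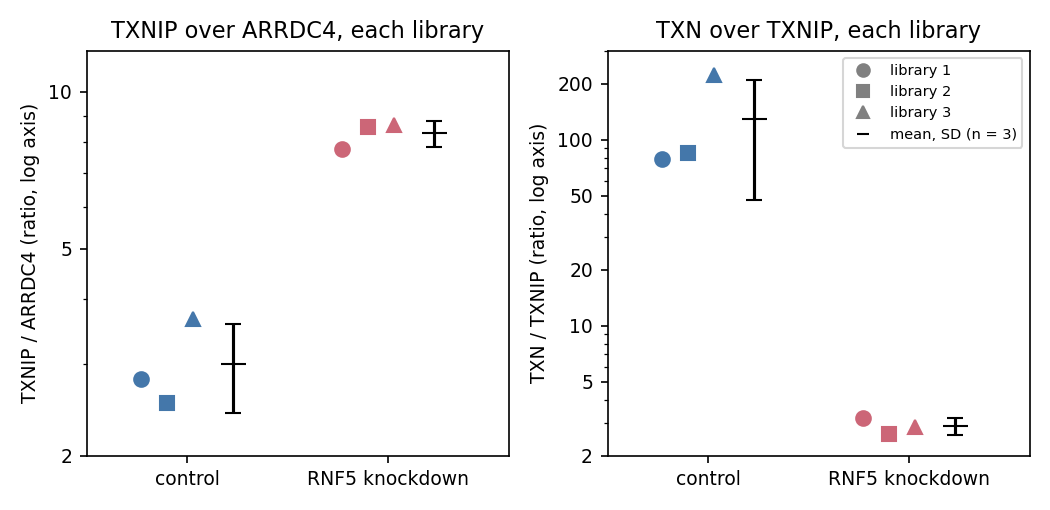
Ratio of TXNIP to ARRDC4 (left) and of TXN to TXNIP (right) within each library, on log axes, with group mean and SD (n = 3). The first ratio is 2.53 to 3.66 over the controls and 7.78 to 8.63 over the knockdowns, and the second is 78.9 to 223 over the controls and 2.60 to 3.19 over the knockdowns.

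Among the 924 genes that the authors listed as higher, TXNIP ranked 12th and ARRDC4 65th by the log2 fold change in the authors' deposited table. Among the 544 of those that were named and averaged 1 or more over the 2 groups, TXNIP ranked 2nd and ARRDC4 18th. The genes next to TXNIP in the authors' full order were THEMIS, a T cell signalling gene, and the pseudogene GGNBP1. THEMIS had a control mean of 0.0133 and a knockdown mean of 0.293, and GGNBP1 had a control mean of 0.0333 and a knockdown mean of 1.46. Next to ARRDC4 stood the pseudogene CROCCP3 (control mean 0.0933, knockdown mean 0.680) and the long non-coding RNA LINC02301 (control mean 0.0867, knockdown mean 0.577).

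In the pattern over libraries, the genes nearest to TXNIP lay farther from it than those nearest to ARRDC4 did. Likeness was measured as the Euclidean distance over the 6 libraries between log2(value + 1) values centred on the control mean, among 1077 other named genes that passed the filter on low values. For TXNIP the nearest genes were the pseudogene VDAC2P3 (distance 1.71), the chemokine receptor CCR1 (2.18), the integrin subunit ITGB7 (2.70), the matricellular protein gene SMOC1 (2.78) and the pseudogene ENO1P2 (2.79). For ARRDC4 they were the long non-coding RNA WAKMAR2 (0.146), the growth factor HGF (0.195), the transcription factor ETS1 (0.222), the antisense RNA BHLHE22-AS1 (0.234) and LINC02909 (0.254). Counting is not stated to use strand, so reads of BHLHE22-AS1 and of any transcript on the other strand cannot be told apart. ARRDC4 itself was 33rd in likeness to TXNIP (distance 3.48), and TXNIP was 582nd in likeness to ARRDC4. All the libraries are shared by every gene, so these distances mainly order genes by the size of their change.

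The library values of the 5 genes nearest to ARRDC4 differed in which knockdown library was highest. HGF was at 0.84, 0.94 and 0.51 in controls 1, 2 and 3, and at 5.08, 5.24 and 4.67 in knockdowns 1, 2 and 3. WAKMAR2 was at 2.99, 2.99 and 2.24 in the control and at 11.81, 12.43 and 11.66 in the knockdown. ETS1 was at 8.39, 6.89 and 5.48 in the control and at 25.02, 28.91 and 26.75 in the knockdown. In each of these 3 genes, as in ARRDC4, control library 3 was the lowest and knockdown library 2 the highest. Both places were common among the 598 listed genes with a mean of 5 or more (428 and 281 genes, each within its group). The nearest genes were also picked by distance over these same libraries, so nothing is read from the shared order. BHLHE22-AS1 was highest in knockdown library 1 (37.97, 37.39 and 35.54 in knockdowns 1, 2 and 3), and LINC02909 in knockdown library 3 (14.85, 17.57 and 18.80).

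**Figure D4:**
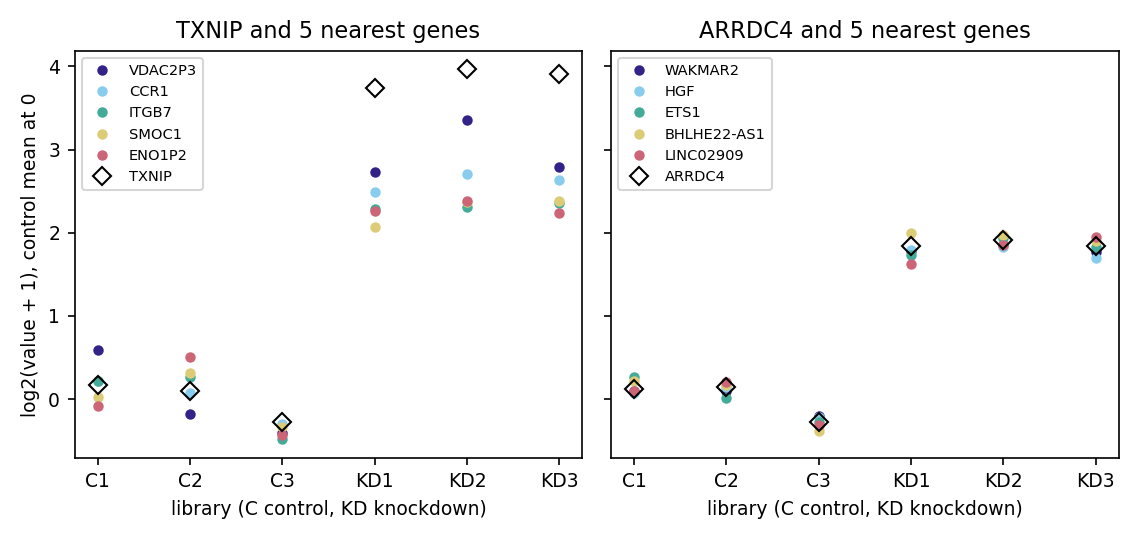
log2(value + 1) with the control mean set to 0 for TXNIP (left) and ARRDC4 (right), drawn as open diamonds, and for the 5 genes nearest to each, drawn as dots, in the 3 control (C) and 3 knockdown (KD) libraries. TXNIP stands above its nearest genes in all 3 knockdown libraries, while ARRDC4 lies among its nearest genes.

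Genes beside TXNIP and ARRDC4 on their chromosomes were not in the authors' set. Of the 10 annotated genes nearest to TXNIP in RefSeq order, 5 on each side and including POLR3GL and HJV (the hemojuvelin gene), 0 were listed. Of the 10 around ARRDC4, among them LINC00923 and LINC02251, 0 were listed. The set holds only genes that passed the authors' thresholds, and a gene's absence from it says nothing of its level.

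The genes around MondoA were looked up in 11 lists. They hold 199 distinct gene symbols, with G6PC1 and its former symbol G6PC both counted. The authors' set contained 17, TXNIP and ARRDC4 included. The same limma fit over the whole table gives the background. Of 1290 genes that reached a value of 1 in 3 libraries or more, 718 were called higher (55.7%) and 542 lower (42.0%), at an adjusted p under 0.05. Of the 15 other listed genes, 11 could be tested, and 5 were called higher, 5 lower and 1 did not pass. HECW1, 1 of the 5 called higher, met the filter through the knockdown libraries alone, so that no other call was possible for it. That share is close to the 97.7% called over the table in either direction, and the authors had picked every gene on these libraries, so these calls are not independent evidence. The median difference on the log2(value + 1) scale was -0.02 over the 11, against 0.73 over all 1290 genes tested. The median over all genes tested ranged from 0.16 to 0.86 when 1 library was left out and was -0.10 with no filter, so nothing is read from this contrast. TXNIP passed the filter on low values through all 6 libraries, but ARRDC4 passed through the 3 knockdown libraries alone.

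The transcription factors of the network had no values here. None of the 13 genes of the MLX network, which include MLXIP, its glucose-sensing relative MLXIPL (ChREBP), MLX and MYC, was in the authors' set. The same held for the 19 other known regulators of TXNIP transcription, among them HSF1, NF-Y subunits and FOXO factors, and for the 11 genes of the NLRP3 inflammasome, to which TXNIP has been linked.

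Of 30 symbols of glucose-responsive targets of MondoA or ChREBP, 5 were listed, and 4 passed the filter. Besides TXNIP and ARRDC4 these were 2 lipogenic genes, which rose. SREBF1, the transcription factor of fatty acid synthesis, was at 117.92, 144.49 and 75.36 in controls 1, 2 and 3, and at 339.61, 360.02 and 390.60 in knockdowns 1, 2 and 3 (log2 difference 1.73, SE 0.22, limma adjusted p = 3.11e-05). SCD, the stearoyl-CoA desaturase, was at 190.92, 165.64 and 111.56 in the control and at 328.60, 385.35 and 360.34 in the knockdown (log2 difference 1.23, SE 0.20, limma adjusted p = 0.000154). The groups did not overlap in either gene. Such changes were common, since 55.7% of all genes tested were called higher. In 47.7% of the 1877 listed genes all 3 knockdown values were above all 3 control values. The authors had also picked each gene on these libraries, so nothing is read from the rise of SREBF1 and SCD. MTTP, a lipid transfer protein, was too low to test, with a control mean of 0.417 ± 0.178 and a knockdown mean of 0.160 ± 0.010. The other 25 symbols, with HK2, PFKFB3, KLF10 and ARRDC3 among them, were not listed.

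Within the arrestin family, TXNIP and ARRDC4 were the only 2 of 14 genes in the authors' set. The list also held ARRDC1, ARRDC2, ARRDC3 and ARRDC5, the beta-arrestins ARRB1 and ARRB2, the visual arrestins SAG and ARR3 and the VPS26 subunits of retromer and related complexes. These other genes have no values here, since the set holds only genes that passed the authors' thresholds. TXNIP and ARRDC4 were chosen from that set, and the share of all genes that reached it is unknown. The count therefore does not show that the change is particular to these 2 genes.

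In the thioredoxin system, whose central protein TXNIP binds, 4 of 22 genes were listed, 3 of which fell and 1 of which rose. Of all genes tested 42.0% were called lower and 55.7% higher, and no direction of the system is read from these 4. Thioredoxin itself, TXN, was at 191.00, 190.96 and 333.95 in controls 1, 2 and 3, and at 126.33, 120.35 and 126.16 in knockdowns 1, 2 and 3 (log2 difference -0.88, SE 0.21, limma adjusted p = 0.00175). Control library 3, the lowest control for TXNIP, was the highest for TXN. The peroxiredoxin PRDX1, which thioredoxin reduces, fell from 111 ± 15.2 to 60.7 ± 4.57 (limma adjusted p = 0.000484), and SRXN1, the sulfiredoxin that restores overoxidized peroxiredoxins, had the largest fall of the 4 (log2 difference -2.49, limma adjusted p = 2.06e-06). TXNRD3, a thioredoxin reductase, rose from 1.81 ± 0.190 to 3.62 ± 0.455 (limma adjusted p = 0.00230).

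TXN and TXNIP thus stood in opposite directions. The ratio of TXN to TXNIP within a library was 78.9, 84.9 and 223 in controls 1, 2 and 3, and 3.19, 2.60 and 2.85 in knockdowns 1, 2 and 3. The mean ratio was 129 ± 81.3 in the control and 2.88 ± 0.296 in the knockdown, 44.7 times apart. Without control library 3 the control mean was 81.9, and the groups stood 28.4 times apart. The size of this factor therefore rests in part on that library. All 3 control ratios were above all 3 knockdown ratios, which the choice of TXNIP on this contrast had all but fixed. Between the group means TXNIP differed 21.1-fold and TXN 1.92-fold, so most of the factor restates the change of TXNIP. The factor is given without a test because TXNIP enters it.

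Among genes of glucose uptake and use, only SLC2A6 and TIGAR could be tested, and SLC2A6 passed. Of all genes tested 97.7% were called, and the authors had picked each on these libraries, so nothing is read from this pass. Of 16 glucose transporters 2 were listed. SLC2A6, a transporter found on lysosomes, rose from 3.03 ± 1.09 to 7.80 ± 1.68 (log2 difference 1.14, limma adjusted p = 0.000802), and SLC2A9, a urate transporter, was too low to test (control mean 0.500 ± 0.270, knockdown mean 0.0933 ± 0.0777). SLC2A1 and SLC2A4, whose proteins TXNIP is known to act on, were not listed. Of 31 genes of glycolysis and hexose phosphate metabolism 2 were listed. PFKFB1, of the enzymes that set fructose 2,6-bisphosphate, was too low to test, with means of 0.133 in the control and 0.597 in the knockdown. TIGAR, a fructose bisphosphatase, did not pass (log2 difference -0.02, limma adjusted p = 0.941). It was at 1.95, 1.63 and 1.59 in the control and at 0.98, 3.67 and 1.08 in the knockdown, so that knockdown library 2 alone stood above the control, although the authors' deposited table lists it as lower.

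Around the pyruvate step and the nutrient sensors, MPC1 and SESN3 fell. MPC1, a subunit of the mitochondrial pyruvate carrier, was at 199.64, 193.10 and 243.17 in controls 1, 2 and 3, and fell to 107.68, 117.80 and 119.70 in knockdowns 1, 2 and 3 (log2 difference -0.87, limma adjusted p = 0.000308). PDK3, a kinase that inhibits pyruvate dehydrogenase, was too low to test, with a control mean of 0.430 ± 0.105 and a knockdown mean of 0.987 ± 0.111. These were 2 of 13 genes of that list. Of 23 energy and nutrient sensing genes, SESN3, a sestrin that restrains mTORC1, was listed and fell from 16.2 ± 3.16 to 6.25 ± 0.973 (log2 difference -1.24, limma adjusted p = 0.000177). Of 13 NEDD4 family ligases and adaptors, a group that includes the TXNIP ligase ITCH, HECW1 was listed, at 0.25, 0.20 and 0.12 in controls 1, 2 and 3, and at 1.13, 1.27 and 1.15 in knockdowns 1, 2 and 3. Its p-value is not given, for the reason stated above. When any 1 knockdown library was left out, HECW1 no longer met the filter on low values.

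**Figure D5:**
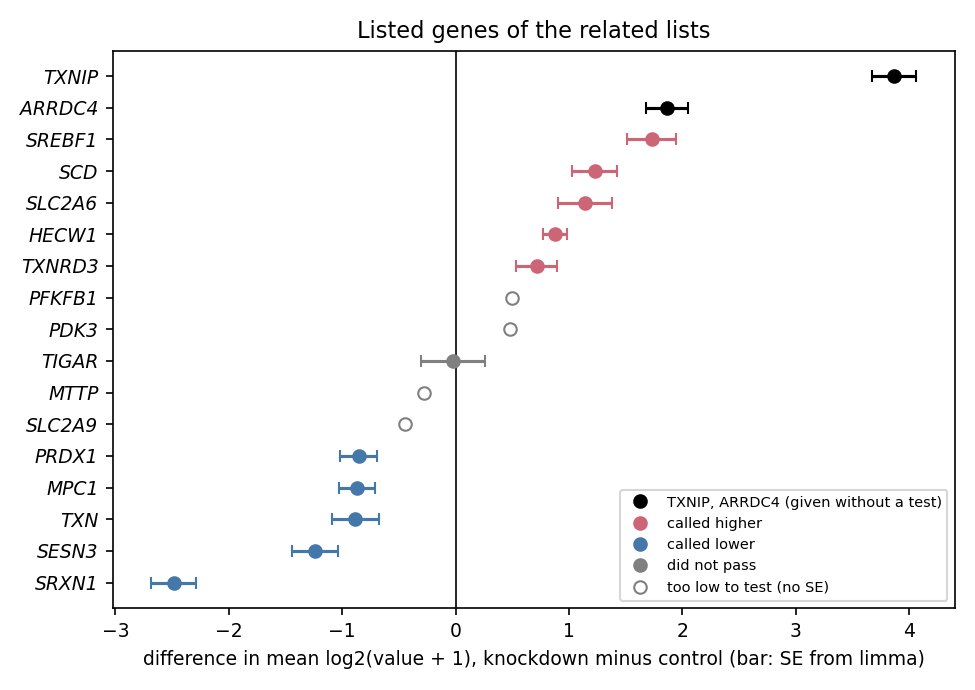
Difference in mean log2(value + 1), knockdown minus control, for the 17 genes of the 11 lists that were in the authors' set, with SE from limma and open points for genes too low to test. On this scale, which compresses genes with low values, the points run from SRXN1 (-2.49) to TXNIP (3.87), with ARRDC4 at 1.86.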

How the data were processed

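RNA of LP-1 cells was sequenced in 6 libraries, 3 per group. The submitters' processing notes name Bowtie at version 0.12.2 and, as build, hg19, without tying either to a step. Per the file headers, the deposited table gives a normalized signal per gene and library and the group means, together with the authors' fold ratio, the log2 of that ratio, and raw and adjusted p-values. How genes were quantified, the scale and the authors' test are not stated in the labels or headers. The authors' p-values were not used.

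TXNIP and ARRDC4 were matched by name. Differences were computed on log2(value + 1), with limma 3.58.1 in R 4.3.3 (mean-variance trend, group alone, Benjamini-Hochberg adjustment over 1290 genes with a value of at least 1 in 3 libraries). The fit was tried on simulated data in which most genes were unchanged. The authors' set was preselected on these libraries, so that trial gives no error rate for the calls here. The p-values measure only the spread between these libraries, which may be technical. The members, lists and tests were chosen with earlier results of these data known, and the motifs with both promoters in view. The genes named were TXNIP, ARRDC4, RNF5, every listed gene of the related lists, the 5 nearest in pattern to each member, the genes next in rank and listed genomic neighbours. Any other gene named was chosen afterwards, as were the rank among genes with a mean of at least 1 and the ratio of TXN to TXNIP. Both members matched the RefSeq promoter table. Alternatives were pseudocounts of 0.1 and 5, no filter, a rescaled knockdown, each library left out, a replicate block and removal of the length trend.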

Additional observations from a re-analysis of the deposited data

How the results depend on the processing

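Both genes were higher in the knockdown under all 24 alternative values computed, 12 for each gene. They were chosen on this contrast and their groups do not overlap, so this direction was all but fixed in advance. The filter does not enter the differences, so without it they were the same by construction. The pseudocount moved the size. With 0.1 the log2 difference was 4.36 for TXNIP and 2.76 for ARRDC4, and with 5 it was 2.78 and 0.84. The log2 difference of TXNIP relative to ARRDC4 was 1.94 with a pseudocount of 5, in place of 1.49 with none. Leaving out 1 library at a time gave 3.73 to 3.96 for TXNIP, 1.73 to 1.94 for ARRDC4, 1.37 to 1.64 for TXNIP relative to ARRDC4, 1076 to 1161 genes called over the table and 9 to 10 of the other related genes called. With the knockdown rescaled to remove its median shift against the authors' own values (0.17 on the log2 scale, over 431 genes with both means at least 5) the differences were 3.70 and 1.72. With the length trend removed, an alternative added after seeing the data, they were 3.87 and 1.86. Without a filter limma called 1787 of 1877 genes, 14 of them related. For knockdown and control libraries with the same replicate number, values centred on the group mean had correlations of -0.16, -0.07 and -0.08. Unlike numbers gave -0.03 to 0.11. Centring within groups of 3 constrains these correlations, so they cannot show whether the libraries were paired. With a replicate block the differences were the same by construction (3.87 and 1.86), and 1272 genes were called. With the depth unknown, the counting error of the low control values, which for ARRDC4 were all under 1, cannot be given.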
